A study of Rattus norvegicus with 9 samples.

Results

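The elastic fibre genes described here are Eln, Fbln1, Fbln2, Fbln5, Fbn1, Mfap4, Mfap5, Lox, Loxl1 and Emilin1. They are 10 of the 36856 genes obtained when the reads and the TPM (an abundance scaled to transcript length and library size) of 9 RNA sequencing libraries were summed per RefSeq gene symbol. The members were chosen by name for their role in the fibre, with no threshold, at a time when the reads and TPM of these same libraries had been compared and the higher Eln level in ESW was known. Counts over the list are therefore descriptions.

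The cells were H9c2(2-1), a wild-type myoblast line from the heart of an embryonic BD1X rat. Control cells (n = 3) received no treatment. ESW cells (n = 3) received energized structured water and CW cells (n = 3) control water, both at a dilution of 0.01 for 72 h in medium renewed every 24 h. All groups came from 1 line, grown in DMEM with serum and antibiotics, and the labels are silent on whether replicates were cultured separately. The p-values thus reflect the variation among these libraries alone, which may be technical. The labels name no batch.

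Elastic fibres give arteries, heart valves, lung and skin their recoil. They consist of a core of crosslinked elastin on a sheath of microfibrils. Cells secrete tropoelastin, the product of Eln, which forms small aggregates, is guided onto microfibrils made of fibrillin-1 (Fbn1) and microfibril-associated proteins (Mfap4, Mfap5), and is crosslinked by the copper enzymes of the lysyl oxidase family (Lox, Loxl1). Fibulin-5 (Fbln5) binds tropoelastin and LOXL1 and is needed for assembly, and emilin-1 (Emilin1) lies between elastin and microfibrils. Fibulin-1 and fibulin-2 (Fbln1, Fbln2) bind elastin and basement membrane proteins.

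The libraries held 26748673 to 48574618 estimated reads, and 14706 genes were tested. The label myoblast was checked on 7 genes of the skeletal myoblast lineage. Of these Cdh15 lay at 29.8 to 36.7 CPM (reads per 1000000 of the scaled library total) and Myod1 at 7.59 to 11.2 CPM. Des was at 3.88 to 6.65 CPM and Myog at 2.00 to 3.58 CPM, whereas 3 of the 7, Myf5, Pax7 and Chrna1, were under 1 CPM in every library. The cardiomyocyte genes Nkx2-5, Actn2 and Nppa were near 0, with 6, 12 and 5 reads over all libraries. From the same list Tnnt2 reached 51.4 to 62.3 CPM and Gata4 4.81 to 6.45 CPM. All 5 blood genes were under 1 CPM, as were 5 of 6 endothelial and 4 of 5 epithelial genes. The exceptions were Tek, at up to 1.34 CPM, and the epithelial gene Krt8, at 49.2 to 64.6 CPM. Of the 7 fibroblast genes 6 exceeded 1 CPM. In every library Col1a1 was at 30220 CPM or more, Col1a2 at 27647, Postn at 1698, Thy1 at 309 and Lum at 298 or more. Dcn lay at 8.34 to 11.1 CPM and Pdgfra was under 1 CPM. All 6 smooth muscle genes exceeded 1 CPM, from Myh11 at 35.8 to 45.8 CPM to Tagln at 3339 to 3722 and Acta2 at 7521 to 9054 CPM. Most fibroblast and smooth muscle genes listed thus lay above Cdh15 and Myod1, as did Tnnt2 and Krt8.

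Promoter windows of 300 bases, from 250 before to 50 after the annotated start, were matched in RefSeq (GRCr8) for 5 of the 10 members, namely Fbln2, Fbln5, Fbn1, Mfap5 and Loxl1. Entries for Eln, Fbln1, Mfap4, Lox and Emilin1 were not matched. Shown are Fbln5 (chr6:126742657-126742956, minus strand) and Loxl1 (chr8:67612175-67612474, minus strand), 2 members called higher in ESW, and Mfap5 (chr4:157399669-157399968, plus strand), the member with the highest level. Capitals mark the letters CATTCC, the core bound by TEAD factors, and CAGAC, a short element bound by SMAD factors, searched on both strands.
Fbln5: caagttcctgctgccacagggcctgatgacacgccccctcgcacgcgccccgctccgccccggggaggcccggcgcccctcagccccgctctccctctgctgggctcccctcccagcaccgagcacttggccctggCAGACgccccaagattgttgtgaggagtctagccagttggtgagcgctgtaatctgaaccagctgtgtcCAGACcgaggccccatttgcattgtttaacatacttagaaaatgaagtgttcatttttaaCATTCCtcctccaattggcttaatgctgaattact
Loxl1: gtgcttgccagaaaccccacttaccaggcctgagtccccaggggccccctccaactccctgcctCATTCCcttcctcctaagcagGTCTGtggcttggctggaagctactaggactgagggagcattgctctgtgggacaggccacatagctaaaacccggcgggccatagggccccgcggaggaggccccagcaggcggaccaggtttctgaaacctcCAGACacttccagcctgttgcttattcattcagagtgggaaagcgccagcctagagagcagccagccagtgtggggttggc
Mfap5: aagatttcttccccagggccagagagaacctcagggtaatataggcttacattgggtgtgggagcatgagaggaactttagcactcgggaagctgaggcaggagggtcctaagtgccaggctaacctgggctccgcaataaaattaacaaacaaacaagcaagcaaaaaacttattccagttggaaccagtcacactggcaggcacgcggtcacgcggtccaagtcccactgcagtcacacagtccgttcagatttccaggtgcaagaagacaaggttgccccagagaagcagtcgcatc
CATTCC began at position 15 in Fbln5 and at position -186 in Loxl1, counted from the start at 0. CAGAC matched at -114 and -45 in Fbln5 and, once on each strand, at -165 and -31 in Loxl1. Neither motif was found in the Mfap5 window, whereas Fbln2 and Fbn1 held CAGAC at 34 and at -188 and no CATTCC. A link between motifs and calls was not tested in these 5 windows. Of all 33469 windows of this length, 14.2% held CATTCC and 50.1% held CAGAC on either strand, and these matches are letters in a window, with no binding measured. The starts used here for Fbln5, Fbln2 and Fbn1 lie 141, 195 and 887 bases inside the outermost RefSeq start of the gene. Those of Loxl1 and Mfap5 coincide with the outermost start. The Fbn1 window therefore does not reach the outermost start of its gene.

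Per transcript length, the leading member was Mfap5, which encodes the microfibril protein MAGP-2. Over the 9 libraries its level ran from 754 to 874 TPM, with a mean of 802. Fbln5 followed at 398 to 498 TPM and Lox at 340 to 403 TPM, and these neighbours overlapped. Eln lay lower, at 166 to 252 TPM, and overlapped with Emilin1 at 165 to 204 TPM. Loxl1 at 145 to 172 TPM overlapped with Emilin1, whereas Fbn1 at 101 to 127 TPM was below every Loxl1 value. Fbln1 was at 22.1 to 29.3 TPM and Fbln2 at 4.49 to 5.23 TPM, each apart from its neighbours.

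**Figure D1:**
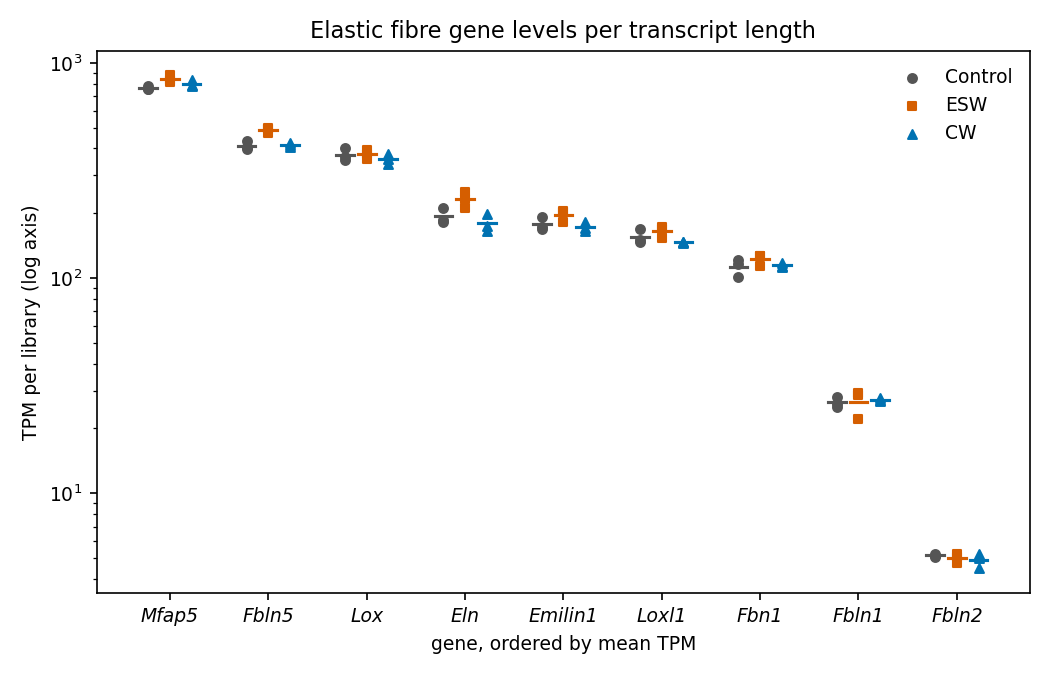
Deposited TPM summed per gene (y axis, log scale) for the 9 tested elastic fibre genes (x axis, ordered by mean), with 1 point per library and a bar for each group mean of 3 libraries. Mfap5 has the highest level, with a mean of 802 TPM, and Fbln2 the lowest, with a mean of 5.02 TPM.

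Mfap4, a fibrinogen-related microfibril protein, was close to absent. Its reads were 0, 2 and 5 in Control, 10, 7 and 1 in ESW, and 2, 2 and 2 in CW. The count of 0 in Control replicate 1 allows up to 3 reads, or 0.0763 per 1000000 estimated reads, for counting error only. With 31 reads in all, Mfap4 did not pass the expression filter, and no fold is given. The other 9 members passed it.

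The summed level of the 10 members was 2140 to 2319 TPM in Control, 2391 to 2486 TPM in ESW and 2173 to 2260 TPM in CW. This sum includes Eln, whose higher level in ESW was known, and its largest part is Mfap5, with a mean of 802 TPM. It was not tested or compared with sums over other genes.

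ESW was set against untreated cells and against CW, to ask which transcripts differ after ESW and whether they differ from water as such. Eln, Fbln5, Emilin1 and Loxl1 were higher in ESW, by between 1.11-fold and 1.29-fold. Lox, Fbln1, Fbln2, Fbn1 and Mfap5 did not pass in either comparison. Both comparisons use the same ESW libraries, and each is given with its own values. In a bulk culture more cells of a kind and more RNA per cell cannot be told apart.

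Eln was at 419, 372 and 386 CPM in Control replicates 1 to 3. ESW had 462, 499 and 485 CPM, and CW had 402, 351 and 372 CPM. All 3 ESW libraries lay above every Control and CW library, and Control and CW overlapped. The ESW mean was 482 ± 18.4 CPM, against 393 ± 24.0 for Control and 375 ± 25.2 for CW (SD, n = 3 each). The fitted change was 1.23-fold against Control (log2 fold change 0.30, SE 0.05) and 1.29-fold against CW (0.36, SE 0.05). Because this difference was known when the list was made, no p is given for it. In TPM the separation from Control was not complete, with 212 TPM in Control replicate 1 and 211 TPM in ESW replicate 1.

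Fbln5, the assembly protein that bridges tropoelastin and LOXL1, was at 533, 504 and 515 CPM in Control. Its ESW values were 616, 611 and 627 CPM, and its CW values 534, 521 and 525 CPM. The lowest ESW library was thus above the highest of the other 6. The mean rose from 517 ± 14.4 CPM in Control and 527 ± 6.21 in CW to 618 ± 8.32 in ESW (SD, n = 3 each). By the quasi-likelihood test of edgeR with Benjamini-Hochberg adjustment over all tested genes, the change was 1.19-fold against Control (log2 0.26, SE 0.03, adjusted p = 0.00036) and 1.17-fold against CW (0.23, SE 0.03, adjusted p = 0.0012). Every library left out in turn kept both calls. With limma on log2(TPM + 1) the adjusted p against CW was 0.0572, the highest of its 18 alternatives, whose lowest was 4.4e-09. TPM also separated the groups, at 471 to 498 TPM in ESW, 398 to 433 in Control and 407 to 425 in CW.

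Loxl1 encodes the lysyl oxidase that acts mainly on elastin. Its Control values were 306, 280.0 and 285 CPM, with 328, 309.5 and 339 CPM in ESW and 279, 288 and 289 CPM in CW. ESW lay above both groups, by a narrow margin between ESW replicate 2 and Control replicate 1. The edgeR changes were 1.12-fold against Control (log2 0.17, SE 0.04, adjusted p = 0.0204) and 1.14-fold against CW (0.19, SE 0.04, adjusted p = 0.0104). Against Control the adjusted p was 0.108 without Control replicate 2, 0.0823 without Control replicate 3, 0.0507 without ESW replicate 1 and 0.141 without ESW replicate 3, in a range of 0.0026 to 0.516 over 18 alternatives. Against CW it was 0.0836 without ESW replicate 3, in a range of 0.00015 to 0.165. Loxl1 has 1 transcript in the tables, yet its deposited effective length (bases open to fragments, as Salmon estimates them per library) ran from 3089 to 3434 bases, with means of 3123 in Control, 3265 in ESW and 3231 in CW. When these lengths entered the fit, the log2 change against Control was 0.07 (adjusted p = 0.417). In TPM, ESW at 153 to 172 overlapped Control at 148 to 169 and was above CW at 145 to 148.

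Emilin1, whose product sits at the border of elastin and microfibrils, was at 489, 451 and 452 CPM in Control. It was at 503, 513 and 536 CPM in ESW and at 471, 468 and 454 CPM in CW. ESW was higher than every library of both other groups, and Control replicate 1 came nearest. The change was 1.11-fold in both edgeR comparisons, with a log2 value of 0.16 (SE 0.04) each and an adjusted p of 0.0201 against Control and 0.0219 against CW. Against Control the call was lost without Control replicate 2 (adjusted p = 0.101), without Control replicate 3 (0.0901), without ESW replicate 3 (0.135) and with transcript length offsets (0.152), in a range of 0.0019 to 0.318 over 18 alternatives. Against CW it was lost without ESW replicate 2 (adjusted p = 0.0566), ESW replicate 3 (0.142), CW replicate 2 (0.0687) or CW replicate 3 (0.108), in a range of 0.0022 to 0.160.

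**Figure D2:**
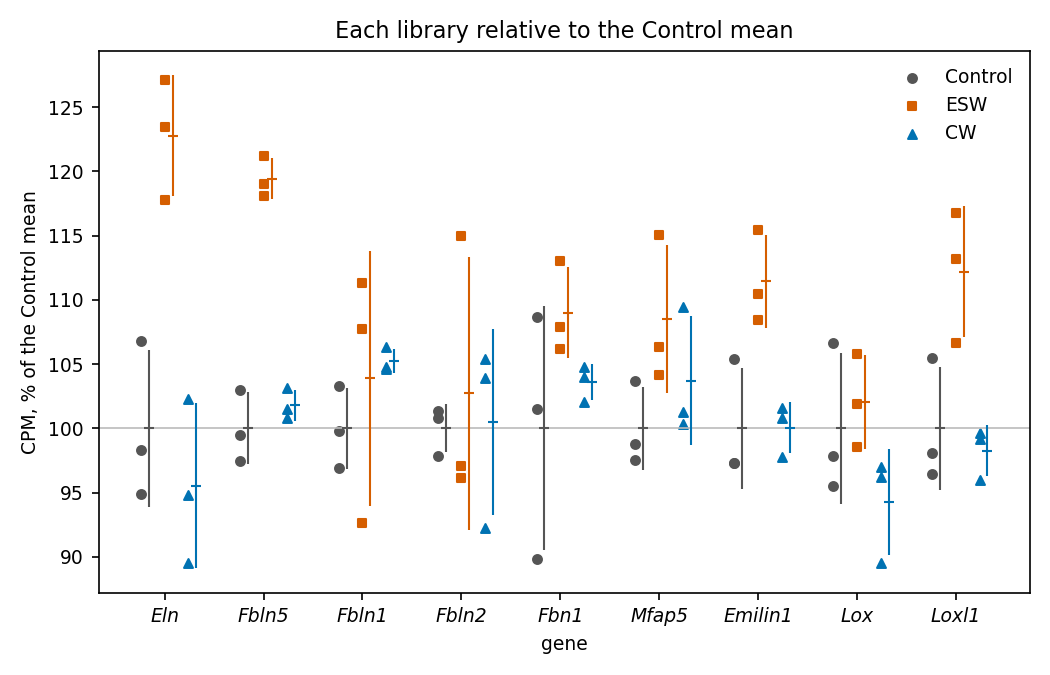
CPM of each library in percent of the Control mean of that gene (y axis) for the 9 tested members (x axis), with 1 point per library and the mean with SD (n = 3) beside the points of each group. For Eln, Fbln5, Emilin1 and Loxl1 the 3 ESW squares lie above all Control and CW points.

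Lox encodes lysyl oxidase itself, which crosslinks collagen and elastin. The Control libraries had 856, 767 and 786 CPM, those of ESW 818, 791 and 849.8, and those of CW 773, 719 and 779. ESW fell within the Control range and lay above all CW libraries. The log2 change was 0.03 against Control (95% interval -0.06 to 0.12, adjusted p = 0.750 by edgeR) and 0.12 against CW (0.02 to 0.21, adjusted p = 0.116). Without a filter on low counts the adjusted p against CW was 0.0329, in a range up to 0.534 over 18 alternatives. Whether Lox and Loxl1 differ in their change was not tested.

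Fbn1, the backbone of microfibrils, had 726, 642 and 777 CPM in Control, 759, 771 and 808 in ESW, and 749, 729 and 743 in CW. The Control libraries spread more widely than the treated ones and overlapped with ESW. Its log2 change of 0.12 against Control had an adjusted p = 0.141 by edgeR, and 0.0335 without Control replicate 3, in a range of 0.0277 to 0.560 over 18 alternatives. Against CW it was 0.07 (adjusted p = 0.405).

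Mfap5 had Control values of 343, 347 and 365 CPM, ESW values of 405, 366 and 374, and CW values of 353, 356 and 385. ESW was just above Control and overlapped CW, where replicate 3 was high. The log2 changes were 0.12 against Control (adjusted p = 0.112 by edgeR) and 0.06 against CW (adjusted p = 0.405).

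The remaining fibulins had low levels, and their ESW libraries spread more than those of Control and CW. Fbln1 ranged over 37.9 to 40.4 CPM for Control, 36.2 to 43.5 for ESW and 40.9 to 41.6 for CW, and Fbln2 was at 13.5 to 14.0, 13.3 to 15.9 and 12.7 to 14.5 CPM. ESW replicate 1 was the lowest ESW library for Fbln1 and the highest for Fbln2. For Fbln1 the edgeR intervals of the log2 change were -0.07 to 0.18 against Control and -0.14 to 0.11 against CW. For Fbln2 they were -0.13 to 0.21 and -0.14 to 0.21.

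Leaving Eln aside, 3 of 8 tested members were called higher and 0 lower in each ESW comparison. Over all 14706 tested genes, 8.04% were called against Control (4.76% higher and 3.28% lower) and 8.14% against CW (4.15% higher and 3.99% lower). With limma on log2(TPM + 1), whose counts over all genes were far smaller, Fbln5 was the member called against Control and 0 members were called against CW. The median log2 change of these 8 was 0.12 against Control and 0.09 against CW, where all tested genes had -0.0097 and -0.0018. Among the same 8, non-overlapping CPM was seen for Fbln5, Emilin1, Loxl1 and Mfap5 against Control (4 of 8, where 13.3% of all genes lay higher and 12.4% lower), and for Fbln5, Emilin1, Loxl1, Lox and Fbn1 against CW (5 of 8, where 14.9% lay higher and 13.4% lower). In TPM it was seen for Fbln5 and Mfap5 against Control (2 of 8, where 10.2% of all genes lay higher and 9.6% lower) and for Fbln5, Emilin1 and Loxl1 against CW (3 of 8, where 10.8% lay higher and 13% lower).

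Among the 7 fibroblast markers, 2 were called against Control (Col1a1 and Col1a2, at 0.29 and 0.22 on the log2 scale) and 3 against CW (Col1a1 at 0.24, Col1a2 at 0.21 and Thy1 at 0.14). The share of all tested genes called, for this list and the next, was 8.04% against Control and 8.14% against CW. Dcn, Lum, Postn and Pdgfra were not called in either comparison, with Dcn at 0.05 and -0.13. The sum over the list was 72618 to 75579 CPM in ESW, against 60320 to 64304 in Control and 61613 to 65215 in CW, and it came mostly from Col1a1 and Col1a2. Of 6 smooth muscle genes, 2 were called against Control (Acta2 and Smtn) and 4 against CW (Acta2, Myh11, Cnn1 and Smtn), and their sum was 13297 to 13584 CPM in ESW, 12467 to 12716 in Control and 11831 to 12669 in CW. Their part in the elastic fibre changes was not tested.

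CW was compared with untreated cells as the control for giving water. By edgeR 0 of the 9 tested members were called, where 0.177% of all genes were called (0.0272% higher and 0.15% lower), and 0 had an unadjusted p under 0.05. DESeq2 and limma-voom also called 0 members. The largest value was that of Lox, -0.09 on the log2 scale (95% interval -0.18 to 0.01, adjusted p = 0.551), and Eln was at -0.07 (-0.17 to 0.04, adjusted p = 0.717). Fbln5 was at 0.03 (-0.05 to 0.10), Emilin1 at 0.0007 (-0.08 to 0.08) and Loxl1 at -0.02 (-0.11 to 0.06). Fbln1 was the member whose 3 CW libraries lay above Control in CPM (7.13% of all genes lay higher and 7.56% lower), at 41.2 ± 0.369 against 39.1 ± 1.24 CPM (SD, n = 3 each). In TPM, where 7.03% of all genes lay higher and 4.37% lower, Loxl1 was the member below Control in all 3 CW libraries, by less than 1 TPM between the nearest pair.

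**Figure D3:**
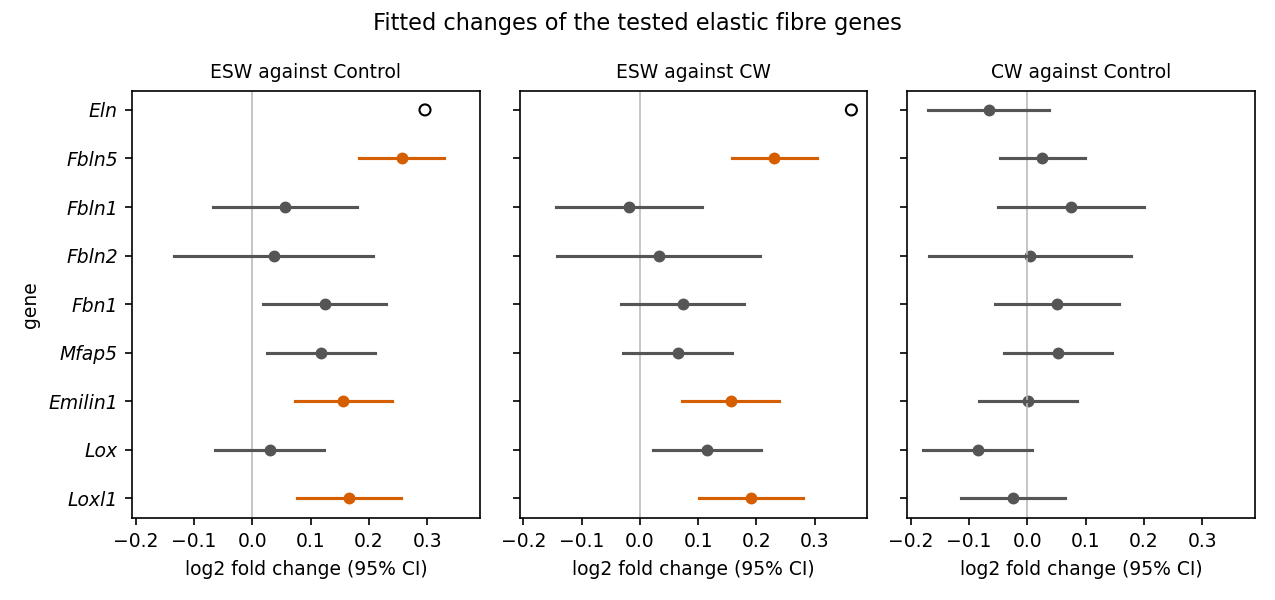
Log2 fold changes from the edgeR model (x axis) of the 9 tested members (y axis) in the 3 comparisons, with unadjusted 95% confidence intervals. Orange genes were called at an adjusted p under 0.05, and grey ones were not. Open circles are Eln in the ESW comparisons, shown without an interval. Fbln5 is at 0.26 and 0.23 in the ESW panels and 0.03 in the CW panel.

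Transcripts of a member were mostly of 1 kind. One RefSeq transcript held 95.5% of the Fbln5 TPM on average over the libraries, 98.4% of Mfap5, 96.8% of Emilin1 and 92.2% of Fbln2. For Fbn1 a transcript of 9943 bases held 89.4% to 99.4%, and the one of 8942 bases was listed at 0 in every library. Fbln1 was divided between transcripts of 2787 bases (71.8%) and 2399 bases (28.2%), with the first at 71.8 ± 1.69% for Control, 71.1 ± 2.81% for ESW and 72.6 ± 2.61% for CW (SD, n = 3 each). For Fbln1 these differences were within the spread between libraries. The minor Emilin1 transcript of 3669 bases held 2.19%, 2.65% and 1.89% in ESW, below every Control library (3.99%, 3.21% and 4.79%) and every CW library (2.70%, 3.40% and 3.72%). The minor Mfap5 transcript of 881 bases held 0.833% to 1.02% in ESW, below every Control library (1.42% to 3.60%) and every CW library (up to 1.68%). These minor transcripts were picked out after their values were seen, and their shares were not tested.

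Eln was spread over more transcripts than the other members. Of its 7 RefSeq transcripts 5 exceeded 1% of the TPM and 1 was listed at 0 throughout. The transcript of 3615 bases led with 54.3 ± 1.63% in Control, 56.3 ± 4.57% in ESW and 60.5 ± 8.35% in CW. In CW replicate 3 it held 69.1%, and a transcript of 3592 bases held 8.44% there while it was at 0 in the other 8 libraries. Reads that fit several of these similar transcripts are divided by estimate, so that the shares are less certain than the sum over the gene.

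**Figure D4:**
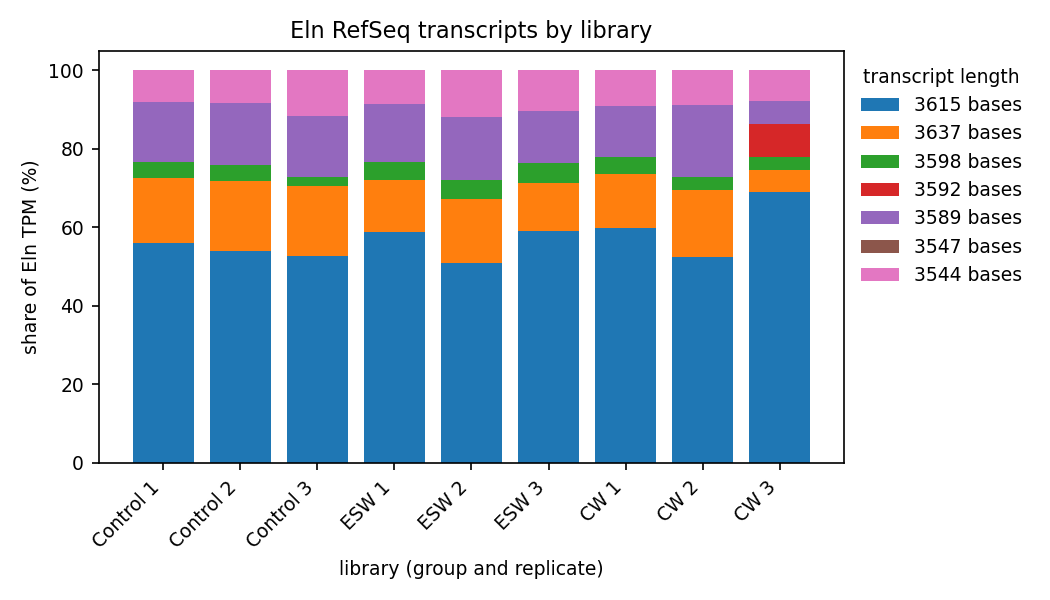
Share of the Eln TPM (y axis, percent) held by each of its 7 RefSeq transcripts in each library (x axis), with transcripts named by length. The 3615-base transcript holds 51.1% to 69.1%, and CW replicate 3 differs from the rest by its 8.44% of the 3592-base transcript.

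The pattern of Eln over the 9 libraries was compared with that of 8845 protein-coding genes that averaged 10 CPM or higher. The 5 most similar genes by Pearson correlation of log2 CPM were Ctnna1 (0.993), Bdnf (0.989), Arhgap44 (0.988), Zbtb7b (0.987) and Cpe (0.981). Ctnna1 encodes alpha-catenin, Bdnf a neurotrophin, Zbtb7b a zinc finger factor and Cpe carboxypeptidase E. These values describe libraries of 3 groups that differ, and carry no test. The Ctnna1 mean was 589.9 ± 7.96 CPM in ESW, above 539 ± 13.6 in Control and 531 ± 11.2 CPM in CW (SD, n = 3 each), and Bdnf had 54.8 ± 2.08, 48.1 ± 2.21 and 47.4 ± 2.18 CPM in the same order. On the same scale Fbln5 had 0.927, Emilin1 0.907, Loxl1 0.826 and Lox 0.692, followed by Fbn1 at 0.574, Mfap5 at 0.372, Fbln1 at 0.175 and Fbln2 at 0.122. Fbln5 thus ranked 135, Emilin1 222, Loxl1 716 and Lox 1612 among the 8845 genes. Of the related genes listed below, Ltbp1 (0.960, rank 28), Bgn (0.948, rank 61) and Itgb1 (0.930, rank 118) ranked above every other member.

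Other genes of the pathway were taken from 4 lists by function. Of 22 further microfibril and fibre proteins, 16 were tested. Among these 7 were higher and 0 lower against Control, and 5 higher and 0 lower against CW. Of all tested genes, 4.76% were called higher and 3.28% lower against Control, and 4.15% higher and 3.99% lower against CW. The list medians were 0.15 and 0.12 on the log2 scale, where all tested genes had -0.0097 and -0.0018. Both sets include Ltbp2, Ltbp3 and Ltbp4, which encode latent TGF-beta binding proteins, and LTBP-2 and LTBP-4 bind fibulin-5. The Ltbp2 mean was 2346 ± 114 CPM in ESW, against 1956 ± 69.4 in Control and 1983 ± 77.6 CPM in CW (SD, n = 3 each; edgeR adjusted p = 0.00088 and 0.0024). Ltbp4 had 176 ± 6.13 CPM in ESW, 149 ± 7.97 in Control and 155 ± 1.17 CPM in CW (adjusted p = 0.0021 and 0.0112), and with transcript length offsets its adjusted p was 0.335 and 0.091. The Ltbp4 call against CW was also lost without ESW replicate 3 (edgeR adjusted p = 0.0867), CW replicate 2 (0.0518) or CW replicate 3 (0.0560). Ltbp3 was 1.24-fold and 1.17-fold higher than in Control and CW (edgeR adjusted p = 0.00026 and 0.0032). Efemp2, the fibulin-4 that binds LOX, was higher by 0.20 and 0.13 on the log2 scale (adjusted p = 0.0032 and 0.0316, and 0.130 and 0.121 with length offsets). Its call against Control held in 16 of 18 alternatives and that against CW in 9 of 18. The call against CW was lost with the replicate block (edgeR adjusted p = 0.0513) and without any single ESW or CW library. Bgn, the proteoglycan biglycan, was higher by 0.16 and 0.21 on the log2 scale (adjusted p = 0.039 and 0.0112), and the perlecan gene Hspg2 was higher by 0.26 against Control (adjusted p = 0.0161), although its libraries overlapped. The Hspg2 call was lost with DESeq2 (adjusted p = 0.0601), with length offsets (0.092), with limma on TPM (0.221) and on leaving out Control replicate 2 (0.100) or ESW replicate 3 (0.118). The Bgn call against Control held in 11 of 18 alternatives (adjusted p up to 0.216) and was lost without Control replicate 2 or 3, ESW replicate 2 or 3 or CW replicate 3. Against CW it held in 13 of 18 (up to 0.144), and it was lost without ESW replicate 2 or 3 or CW replicate 2 or 3.

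Some close relatives of the members were all but missing. Fbn2, the second fibrillin, had 30 reads over the 9 libraries, Mfap2, the relative of Mfap5, had 12, and Efemp1, the fibulin-3 gene, had 1. Each was too low to be tested.

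For crosslinking and assembly, 13 of 15 genes were tested, with 2 higher and 0 lower against Control and 2 higher and 1 lower against CW. Of all tested genes, 8.04% were called against Control (4.76% higher and 3.28% lower) and 8.14% against CW (4.15% higher and 3.99% lower). The small counts of this list were not tested against these shares. The higher ones were Fkbp10, an endoplasmic reticulum chaperone of collagen and tropoelastin, at 0.15 and 0.16 on the log2 scale (adjusted p = 0.0124 and 0.0109), and Glb1, whose splice variant encodes the elastin-binding protein, at 0.20 and 0.18 (adjusted p = 0.0021 and 0.0048). Reads of Glb1 are not separated by splice variant here. The Fkbp10 call against Control was lost without Control replicate 3 (edgeR adjusted p = 0.0687) or ESW replicate 3 (0.0775). Against CW the Fkbp10 call was lost without ESW replicate 3 (0.0714) or CW replicate 2 (0.0602). Adamtsl5, which binds fibrillin, was lower than in CW by 0.30 (log2 fold change -0.30, adjusted p = 0.0473, and 0.182 with DESeq2). Its CW libraries were high, at 79.4 ± 6.35 CPM, against 64.8 ± 8.75 in ESW and 61.3 ± 8.59 CPM in Control (SD, n = 3 each), and its log2 change was 0.37 in CW against Control (adjusted p = 0.117) and 0.08 in ESW against Control (adjusted p = 0.666). The Adamtsl5 call held in 10 of 18 alternatives. It was lost with the replicate block (edgeR adjusted p = 0.0857) and without Control replicate 2, ESW replicate 2 or 3 or CW replicate 2 or 3. Loxl2, Loxl3 and Loxl4, the other lysyl oxidases, had values of 0.02, 0.07 and -0.04 against Control (adjusted p = 0.857, 0.254 and 0.707).

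Of 11 elastin degrading enzymes and inhibitors 5 were tested, where 8.04% of all tested genes were called against Control and 8.14% against CW. Mmp2, a gelatinase that also cleaves elastin, was 1.85-fold higher than in Control at 4.01 ± 0.483 against 2.19 ± 0.507 CPM (adjusted p = 0.0051), and 0 of the 5 were called against CW (2.94 ± 0.443 CPM). The macrophage elastase gene Mmp12 and the neutrophil elastase gene Elane had 0 reads in all 9 libraries.

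Among 13 receptors and regulators 2 were higher against Control and 5 against CW, with 0 lower in both. Of all tested genes, 4.76% were called higher and 3.28% lower against Control, and 4.15% higher and 3.99% lower against CW. Tgfb1, the growth factor that raises elastin synthesis in many mesenchymal cells, was higher by 0.39 and 0.32 on the log2 scale (adjusted p = 7.7e-05 and 0.00071). Itgb5, an integrin subunit of matrix receptors, was 1.15-fold and 1.12-fold higher (adjusted p = 0.0018 and 0.0083). Its call against CW was lost without ESW replicate 3 (edgeR adjusted p = 0.0631). The 3 called against CW alone were Itgb1, Tgfb2 and Tgfb3, at 0.13, 0.16 and 0.16 on the log2 scale (adjusted p = 0.0452, 0.040 and 0.0461). These calls held in 10, 12 and 10 of 18 alternatives, and all of them were lost without ESW replicate 2, ESW replicate 3, CW replicate 2 or CW replicate 3, and Tgfb3 also without CW replicate 1. Itgb1 was also lost with the size factors of DESeq2 (adjusted p = 0.0519), and Tgfb2 and Tgfb3 with length offsets (0.110 and 0.067). Whether their changes differ between the comparisons was not tested. Over the 4 lists 0 of 47 tested genes were called in CW against Control by edgeR, DESeq2 or limma-voom, where 0.177% of all genes were called by edgeR. In edgeR 10 of the 47 had an unadjusted p under 0.05, a larger share than the 9.87% of all genes. This difference in shares was not tested.

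In all 12 of the 47 tested related genes were called against Control, where 8.04% of all genes (1183) were called. Without Control replicate 2, Control replicate 3 and ESW replicate 3 these were 9, 9 and 8, where 534, 590 and 397 of all genes were called. Against CW 13 of the 47 were called, where 8.14% of all genes (1197) were called. Without ESW replicate 2, ESW replicate 3, CW replicate 2 and CW replicate 3 these were 7, 4, 5 and 6. The counts over all genes were then 571, 314, 407 and 474. Ltbp2, Ltbp3, Glb1 and Tgfb1 kept their calls in both comparisons whichever library was left out.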

How the data were processed

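RNA of 9 libraries in 3 groups of 3 was quantified by the authors with Salmon 1.10.3, and DESeq2 is also named, both per the submitters' processing notes. Per the file headers, the deposited tables give for 114122 RefSeq transcripts an estimated count of reads, the TPM, the length and the effective length. The TPM values, as deposited by the authors, sum to 1000000 per library. The build, the annotation release and the use of strand are not given in the sources used here.

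Versioned accessions tied every transcript to a RefSeq gene of GRCr8, whose symbols were used. Estimated counts were summed per gene and rounded to whole numbers. Tests used edgeR 4.0.16 in R 4.3.3 (filterByExpr, TMM scaling, quasi-likelihood test, 1 mean per group, 6 residual degrees of freedom), with Benjamini-Hochberg adjustment over 14706 genes and a threshold of 0.05. Intervals are 95% and unadjusted. CPM are relative to the TMM-scaled library total. Fits were tested on simulated counts. The members and lists were chosen with earlier results of these data known. All members were named, with related genes called in a comparison (up to 5 per list with the smallest p) and the 5 genes most like Eln. Loxl2, Loxl3, Loxl4, Ltbp1, Fbn2, Mfap2, Efemp1, Mmp12 and Elane were named after their values were seen. Alternatives were DESeq2 1.42.0 and its size factors, limma 3.58.1 (voom, or log2 of TPM with a pseudocount of 1), other filters, transcript length offsets, 2-group fits, a replicate block and each library left out.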

Additional observations from a re-analysis of the deposited data

How the results depend on the processing

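Of the alternatives other than leaving out a library, those that moved a count by over 1.5 times were these. With limma on log2(TPM + 1), 86, 0 and 0 of all genes were called in the comparisons of ESW with Control, of ESW with CW and of CW with Control, with 1 and 0 members and 1 and 0 related genes in the ESW comparisons. With transcript length offsets, 440 genes were called in ESW against Control and 2 genes in CW against Control. Eln left aside, Fbln5 was then the member called in ESW against Control. CW against Control had 273 called genes with no filter on low counts (5 of them related genes), 71 with DESeq2 and 16 with only the 2 groups compared. ESW against CW had 22 related genes with no filter. Leaving out 1 library gave 397 (without ESW replicate 3) to 1544 genes in ESW against Control. It gave 314 (also without ESW replicate 3) to 1486 genes and 4 to 18 related genes in ESW against CW. In CW against Control it gave 5 to 51 genes, 0 members and 0 to 1 related genes. For the ESW comparisons the member calls are given above with each gene, Eln left aside. Counts in ESW against Control were also over 1.5 times lower without Control replicate 2 (534) and Control replicate 3 (590), and in ESW against CW without ESW replicate 2 (571), CW replicate 2 (407) and CW replicate 3 (474).

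Fbln2, Lox, Fbln1, Fbn1, Loxl1 and Emilin1 changed sign in comparisons where they were not called. Fbln2 was at -0.031 with limma on TPM and -0.045 with length offsets in ESW against Control, and in CW against Control at -0.0017 with no filter, -0.0035 with voom, -0.057 with limma on TPM and -0.076 with length offsets. Lox was at -0.0063 with length offsets in ESW against Control. Emilin1 in CW against Control was at -0.0049 with no filter, -0.045 with limma on TPM and -0.054 with length offsets. The cause was not tested. With 1 library left out, the log2 change ran for Fbln2 in ESW against Control from -0.0497 to 0.0848, for Lox in ESW against Control from -0.00182 to 0.0751, for Fbln1 in ESW against CW from -0.0726 to 0.0581, for Fbln2 in ESW against CW from -0.0532 to 0.0811, for Fbln2 in CW against Control from -0.0348 to 0.0655, for Fbn1 in CW against Control from -0.021 to 0.11, for Loxl1 in CW against Control from -0.0503 to 0.0171, for Emilin1 in CW against Control from -0.0195 to 0.0425.

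The replicate numbers are shared by the groups, but the labels do not say that they mark a batch. Deviations from the group means correlated at -0.12 to 0.04 between same-numbered libraries, and 6 of 18 best matches were the own number. With the replicate block 971, 949 and 25 genes were called in the 3 comparisons, with 11, 10 and 0 related genes. Eln left aside, Fbln5, Emilin1 and Loxl1 kept their calls in both ESW comparisons, and 0 members were called in CW against Control. The share of the leading transcript by reads in place of TPM was 74.8% for Fbln1 and 96.5% for Fbln5. By Spearman correlation 4 of the 5 genes most like Eln were the same. Bdnf, Arhgap44 and Zbtb7b were tied with other genes at rank 3 there. Ties were broken by the Pearson order, which favours this overlap. Mfap4 was too low in reads to be tested.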
